A study of Mus musculus with 6 samples.

Results

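The 8 genes described here encode the secreted parts of the colon mucus gel and the small peptides released with it: Muc2, Clca1, Fcgbp, Zg16, Spink4, Tff2, Tff3 and Guca2a. They were taken by name from a count table of 46078 genes. Of the 8, 7 were matched by gene name in the authors' deposited table and 1, Tff2, which is not listed there, by its Ensembl ID. Total RNA came from the colon epithelial fraction, the cells released from the tissue by washing with EDTA and DTT, of unchallenged mice aged 2 months. The groups were Lingo2-/- (3 libraries) and wild type (3 libraries). The labels name neither the design of the Lingo2 allele nor the strain or sex, and they do not say that each library came from its own animal. Each p-value below is thus set by how much the libraries of a group varied, and that variation may be technical.

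Goblet cells store and release the gel that covers the colon. Its scaffold is Muc2, a very large glycosylated mucin that polymerises into nets and keeps bacteria away from the epithelium. Clca1 is a secreted metalloprotease that cleaves Muc2, Fcgbp is a large protein with repeated von Willebrand D domains that is bound in the gel, and Zg16 is a lectin that binds the cell wall of Gram-positive bacteria. Tff2 and Tff3 are trefoil peptides, compact disulfide-bonded proteins that help the epithelium close over injury. Spink4 belongs to the Kazal family of protease inhibitors. Guca2a is the precursor of guanylin, the ligand of the guanylate cyclase C receptor that drives fluid and bicarbonate secretion. Lingo2, a membrane protein with leucine-rich repeats, has been described as a receptor component for Tff3, so the comparison asks whether the transcripts of this secreted set differ when it is disrupted.

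The coding sequences of Spink4 and Tff3 are shown because Spink4 is the member that passed the test and Tff3 is the peptide linked to Lingo2. They come from GENCODE M21 transcripts (GRCm38), without the stop codon, and capitals mark the in-frame cysteine codons TGT and TGC. Spink4 lies at chr4:40920052-40931395 on the plus strand, and its coding part has 86 codons, 6 of them for cysteine. Tff3 (chr17:31125306-31129646, minus strand) has 7 such codons among 81, and its neighbour Tff2 (chr17:31141049-31144282, minus strand) has 14 among 129.
Spink4: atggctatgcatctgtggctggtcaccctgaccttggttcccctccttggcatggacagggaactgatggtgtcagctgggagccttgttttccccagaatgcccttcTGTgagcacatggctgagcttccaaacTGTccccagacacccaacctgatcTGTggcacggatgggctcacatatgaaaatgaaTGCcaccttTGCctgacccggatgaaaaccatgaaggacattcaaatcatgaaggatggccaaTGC
Tff3: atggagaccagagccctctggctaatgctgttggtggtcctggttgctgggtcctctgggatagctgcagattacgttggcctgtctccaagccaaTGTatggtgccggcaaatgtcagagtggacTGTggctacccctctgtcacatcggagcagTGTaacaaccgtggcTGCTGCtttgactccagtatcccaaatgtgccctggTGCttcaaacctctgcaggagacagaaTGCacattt

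Gene reads numbered 7060769 to 13047682 in the Lingo2-/- libraries and 25010618 to 28029583 in the wild type libraries, so the Lingo2-/- group was the shallower throughout. Genes of the mitochondrial genome took 35.7% to 39.8% of them in Lingo2-/- and 45.3% to 48.4% in wild type. Levels are CPM scaled with TMM factors (TMM CPM), that is, reads of a gene relative to the library total after a correction for shifts in composition. Lingo2 itself had 1, 1 and 0 reads in Lingo2-/- replicates 1, 2 and 3 and 0, 7 and 0 reads in wild type replicates 1, 2 and 3, too few to check the genotype labels. The epithelial markers Epcam (688 ± 65.7 TMM CPM in Lingo2-/- and 729 ± 103 in wild type, SD, n = 3 each) and Krt8 (1295 ± 149 and 1259 ± 106) were high in both groups. Of the 6 listed epithelial markers, 2 had fitted values above 0 and 4 below, with none called. Their log2 fold changes, Lingo2-/- over wild type, ran from −0.30 for Krt20 to 0.20 for Krt18. Genes of T cells and intraepithelial lymphocytes were lower in Lingo2-/-: all 10 listed markers passed the test, and their summed level was 72.1 to 95.004 TMM CPM in Lingo2-/- and 286 to 343 in wild type, with none at 0 reads. Of all tested genes, 1.52% were called lower. The 5 fibroblast genes (median log2 fold change −1.34) and the 5 erythrocyte genes (−0.82) all had values below 0, with none called. Of the 6 macrophage and dendritic cell genes, Itgax and Tyrobp were called lower. Of the 6 B and plasma cell genes, 5 had values above 0, with none called. The part of these cells in the results below was not tested. In bulk RNA, fewer cells of a type and less RNA per cell cannot be told apart.

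The 8 genes did not move as a block. Spink4 was 2.01-fold higher in the Lingo2-/- libraries and passed the test. Clca1 and Fcgbp had fitted values well above 0 but a wide spread, Muc2 lay near 0, and Zg16, Tff3, Guca2a and Tff2 lay below 0. By edgeR's quasi-likelihood test with Benjamini-Hochberg adjustment over 16757 genes, 1 of the 8 passed at 0.05, against 2.57% of all tested genes. That gene was higher in Lingo2-/-, as were 1.04% of all tested genes, and 0 of the 8 were called lower, against 1.52%. Without adjustment, 4 of the 8 had a p under 0.05, against 18.6% of all tested genes. All 8 were tested, and their median log2 fold change, Lingo2-/- over wild type, was −0.11, with 4 above 0 and 4 below, beside a median of 0.00098 over all tested genes. The groups did not overlap in 3 of the 8 genes, Clca1, Spink4 and Tff2, against 24.1% of all tested genes.

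**Figure D1:**
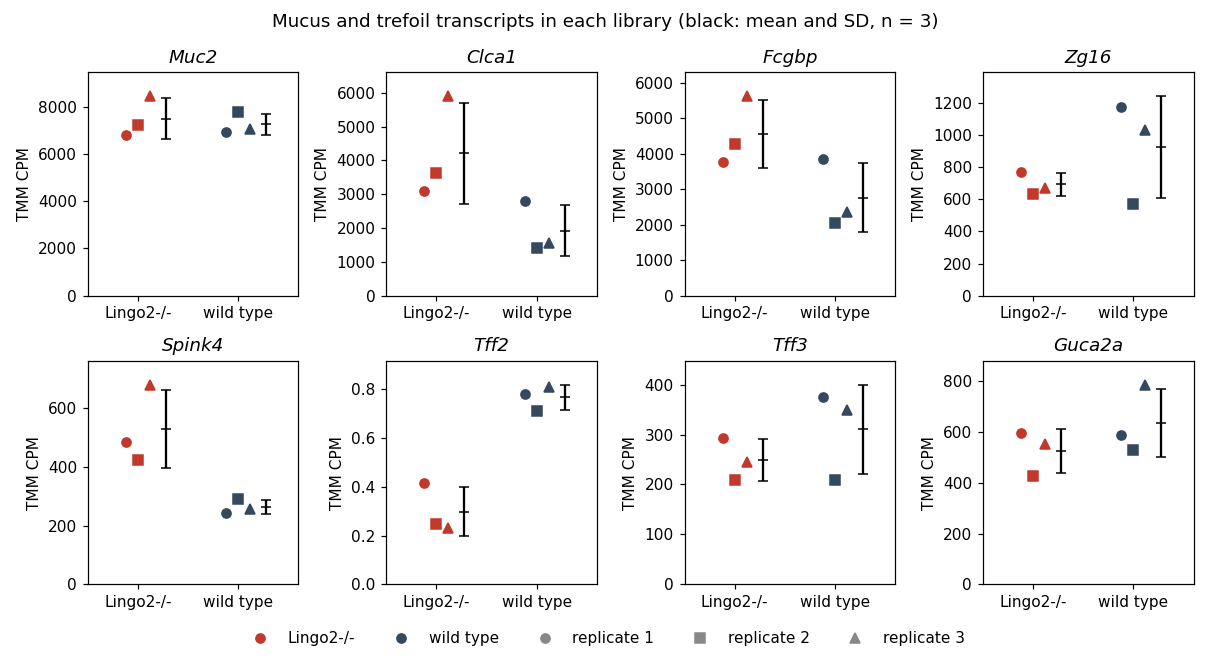
TMM CPM of each of the 8 genes (y axis, from 0) in the 3 Lingo2-/- (red) and 3 wild type (dark blue) libraries, with marker shapes for replicates 1 to 3 and black bars for the mean and SD. Spink4, Clca1 and Tff2 have groups that do not overlap, and wild type replicate 1 stands high for Clca1 and Fcgbp while wild type replicate 2 stands low for Zg16 and Tff3.

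Muc2, the gel scaffold and the most abundant of the set by read count, was at 6789, 7212 and 8454 TMM CPM in Lingo2-/- replicates 1, 2 and 3 and at 6907, 7767 and 7055 TMM CPM in wild type replicates 1, 2 and 3. The highest and the lowest of the 6 libraries were both Lingo2-/- libraries, and the groups overlapped. Its mean was 7485 ± 866 TMM CPM in Lingo2-/- and 7243 ± 459 in wild type (SD, n = 3 each), a log2 fold change of 0.047 ± 0.16 (SE, edgeR adjusted p = 0.905). The sign of this small value depended on Lingo2-/- replicate 3: without it, the fitted value was −0.056. Muc2 (chr7:141690340-141754693, plus strand) is annotated in GENCODE M21 as a fragmented locus with 7127 exon bases. The release used for the counting is not given, so how much of this very long transcript its level covers is not known.

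Clca1, the Muc2-cleaving protease (chr3:145003817-145032776, minus strand), was at 3098, 3639 and 5913 TMM CPM in Lingo2-/- replicates 1, 2 and 3, against 2807, 1420.2 and 1555 TMM CPM in wild type replicates 1, 2 and 3. All 3 Lingo2-/- libraries lay above all 3 wild type libraries, but Lingo2-/- replicate 1 exceeded wild type replicate 1 only slightly. The means were 4217 ± 1494 and 1927 ± 765 TMM CPM (log2 fold change 1.13 ± 0.33, edgeR adjusted p = 0.129). Without wild type replicate 1 the value was 1.501 with an edgeR adjusted p = 0.0236. Clca1 passed in no other setting, and without Lingo2-/- replicate 3 its value was 0.80 (edgeR adjusted p = 0.254).

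Fcgbp, the gel protein with von Willebrand D domains (chr7:28071236-28120862, plus strand), was at 3759, 4269 and 5627 TMM CPM in Lingo2-/- replicates 1, 2 and 3, against 3862, 2042 and 2354 TMM CPM in wild type replicates 1, 2 and 3. Here wild type replicate 1 lay above Lingo2-/- replicate 1, so the groups overlapped. The means were 4552 ± 966 and 2753 ± 973 TMM CPM (log2 fold change 0.73 ± 0.25, edgeR adjusted p = 0.152). Without wild type replicate 1 the log2 fold change was 1.05 (edgeR adjusted p = 0.0256), and with no filter on low counts it was 0.70 (edgeR adjusted p = 3.93e-05). Fcgbp passed in no other setting, and without Lingo2-/- replicate 3 the log2 fold change was 0.54 (edgeR adjusted p = 0.369). Reads shared with its paralog 9530053A07Rik could be split or dropped as not unique in the counting. That paralog itself held 23 reads over the 3 Lingo2-/- libraries and 31 over the 3 wild type libraries.

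Spink4, the Kazal family inhibitor, had 7012, 3410 and 5880 reads in Lingo2-/- replicates 1, 2 and 3 and 5301, 7788 and 6021 reads in the deeper wild type replicates 1, 2 and 3. On the TMM CPM scale this was 483, 425 and 680.2 in Lingo2-/- and 244, 290.4 and 256 in wild type. Every Lingo2-/- library exceeded every wild type library, and the wild type values lay within a narrow band (coefficient of variation 9.15%, against 25.2% in Lingo2-/-). The means were 529.6 ± 134 TMM CPM in Lingo2-/- and 264 ± 24.1 in wild type, and Spink4 rose by a log2 fold change of 1.01 ± 0.16 (edgeR adjusted p = 0.00905). It passed in each of the 6 fits that left out 1 library (log2 fold change 0.78 to 1.13, edgeR adjusted p = 0.0108 to 0.0375) and in all 10 other settings. In the authors' deposited table Spink4 has a log2 fold change of 1.01 with an adjusted p of 1.17e-07. It is the 1 member of the 7 listed there that passes 0.05, against 675 of all 14338 genes in that table.

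**Figure D2:**
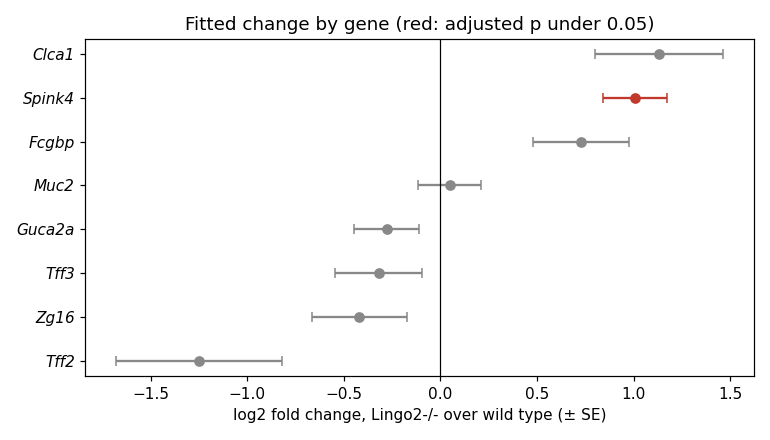
Fitted log2 fold change, Lingo2-/- over wild type (x axis), of the 8 genes with standard errors. Spink4 (1.01 ± 0.16, red) passes the test. The other genes, in grey, range from −1.25 for Tff2 to 1.13 for Clca1.

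Zg16, the peptidoglycan-binding lectin (chr7:127050156-127087328, minus strand), was at 773, 631 and 673 TMM CPM in Lingo2-/- replicates 1, 2 and 3, against 1176, 569 and 1035 TMM CPM in wild type replicates 1, 2 and 3. The Lingo2-/- libraries were close to each other, while wild type replicate 2 lay below all of them and the other two wild type libraries above. The means were 692 ± 72.9 and 926 ± 318 TMM CPM (log2 fold change −0.42 ± 0.24, edgeR adjusted p = 0.399). Without wild type replicate 2 the value was −0.68 with an edgeR adjusted p = 0.0360, and leaving out wild type replicate 1 gave −0.21.

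The trefoil peptide Tff3 followed the same layout at a lower level, at 292, 209 and 245 TMM CPM in Lingo2-/- replicates 1, 2 and 3, against 375, 209 and 348 TMM CPM in wild type replicates 1, 2 and 3. Its means were 249 ± 41.9 and 311 ± 89.0 TMM CPM (log2 fold change −0.32 ± 0.23, edgeR adjusted p = 0.494). Leaving out wild type replicate 1 gave −0.16, and leaving out wild type replicate 2 gave −0.54. The groups overlapped, since wild type replicate 2 stood level with the lowest Lingo2-/- library.

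Tff2, the trefoil peptide with 14 cysteine codons, is known mainly from the stomach and was scarce here. It had 6, 2 and 2 reads in Lingo2-/- replicates 1, 2 and 3 and 17, 19 and 19 reads in wild type replicates 1, 2 and 3. Pooled over each group this was 0.321 TMM CPM in Lingo2-/- (95% exact Poisson interval 0.154 to 0.590) and 0.764 TMM CPM in wild type (0.575 to 0.994), and these intervals cover counting error only. A library with 0 reads would allow up to 3 reads, or 0.207 to 0.374 TMM CPM in Lingo2-/- and 0.112 to 0.138 TMM CPM in wild type, so the Lingo2-/- values of replicates 2 and 3 lay below the level of 3 reads. The log2 fold change was −1.25 ± 0.43 (edgeR adjusted p = 0.146), with all 3 Lingo2-/- libraries below all 3 wild type libraries. The remaining trefoil gene, Tff1, had 0 reads over the 3 Lingo2-/- libraries and 1 over the 3 wild type libraries and was not tested.

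Guca2a, the guanylin precursor (chr4:119637704-119639471, plus strand), was at 595, 427 and 551 TMM CPM in Lingo2-/- replicates 1, 2 and 3, against 589.9, 531 and 786 TMM CPM in wild type replicates 1, 2 and 3. The groups overlapped, with wild type replicate 3 the highest and Lingo2-/- replicate 2 the lowest. The means were 524 ± 87.0 and 636 ± 134 TMM CPM (log2 fold change −0.28 ± 0.17, edgeR adjusted p = 0.404). The fitted value was −0.16 without Lingo2-/- replicate 2 and −0.098 without wild type replicate 3. Its receptor gene Gucy2c was at 178 ± 5.29 TMM CPM in Lingo2-/- and 206 ± 4.03 in wild type (−0.21 ± 0.09, edgeR adjusted p = 0.242). Guca2b, the uroguanylin precursor and the other peptide ligand of that receptor, was at 10.8 ± 3.93 and 5.82 ± 0.611 TMM CPM (0.87 ± 0.23, edgeR adjusted p = 0.0737).

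Levels of different genes can be compared only per length, here as TMM CPM per kb of exon annotated in GENCODE M21. For Muc2 this rests on the 7127 exon bases of its fragmented locus, which may differ from those counted. In Lingo2-/- the order was Clca1 (1116 ± 395), Spink4 (1110.2 ± 280.3), Muc2 (1050.2 ± 121), Guca2a (883 ± 146), Zg16 (551 ± 58.0), Tff3 (505 ± 85.0), Fcgbp (434 ± 92.0) and Tff2 (0.510 ± 0.172 TMM CPM per kb, SD, n = 3). In that order each gene overlapped the gene before it across the 3 libraries, except Zg16 and Tff2. In wild type the order was Guca2a (1070.2 ± 225), Muc2 (1016 ± 64.5), Zg16 (737 ± 253), Tff3 (631 ± 181), Spink4 (553 ± 50.5), Clca1 (510.3 ± 202), Fcgbp (262 ± 92.7) and Tff2 (1.31 ± 0.0892 TMM CPM per kb). Here Zg16, Fcgbp and Tff2 did not overlap the gene before them. These orders are of group means and did not hold in every library: Muc2 was above Clca1 and Spink4 in Lingo2-/- replicate 2, and Spink4 was above Zg16 and Tff3 in wild type replicate 2.

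Ratios to Muc2 within a library need no scaling factor. For every 100 Muc2 reads, Spink4 had 7.12, 5.89 and 8.05 reads in Lingo2-/- replicates 1, 2 and 3, against 3.53, 3.74 and 3.64 reads in wild type replicates 1, 2 and 3. The wild type ratio was almost constant, and every Lingo2-/- ratio lay above it. Clca1 had 45.6, 50.5 and 69.9 reads for every 100 Muc2 reads in Lingo2-/- and 40.6, 18.3 and 22.0 in wild type, also without overlap. Fcgbp had 55.4, 59.2 and 66.6 in Lingo2-/- and 55.9, 26.3 and 33.4 in wild type. The mean log2 ratio differed, Lingo2-/- minus wild type, by 0.94 for Spink4, 1.099 for Clca1, 0.72 for Fcgbp, −0.40 for Zg16, −0.33 for Tff3 and −0.31 for Guca2a. Exact two-sided permutation tests gave p = 0.1 for Spink4 and Clca1, the smallest p that 3 against 3 libraries allow. The same exact permutation tests gave p = 0.2 to 0.4 for the other 4 genes, and 0.3 to 0.4 over the 6 ratios after Benjamini-Hochberg adjustment.

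**Figure D3:**
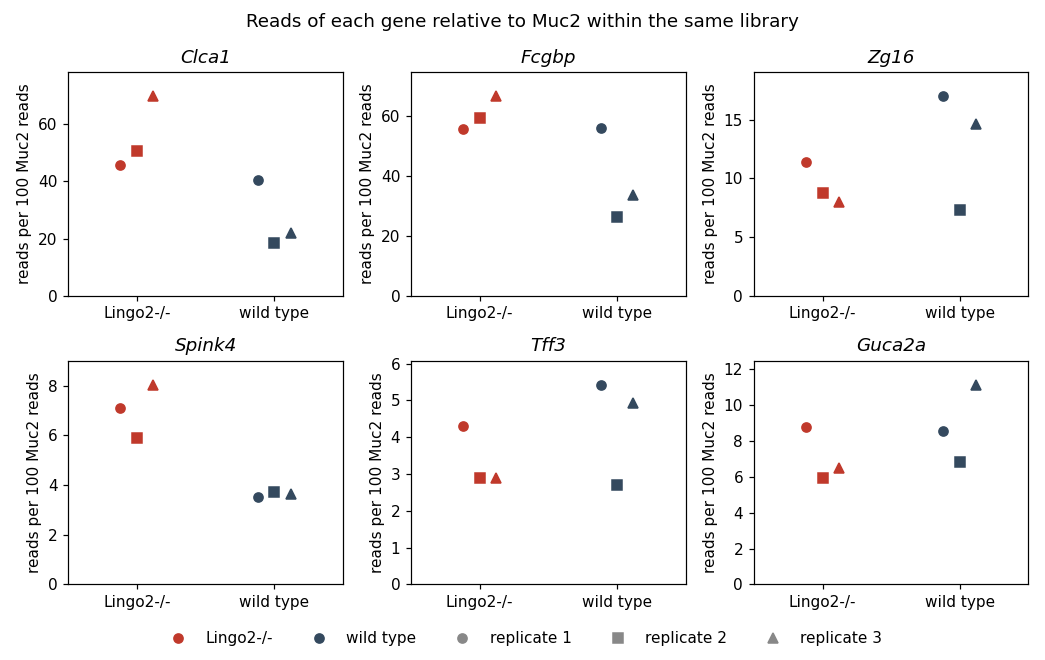
Reads of 6 genes for every 100 Muc2 reads of the same library (y axis, from 0), for Lingo2-/- (red) and wild type (dark blue) libraries, with marker shapes for replicates 1 to 3. Spink4 lies at 5.89 to 8.05 in Lingo2-/- and at 3.53 to 3.74 in wild type, while Zg16, Tff3 and Guca2a overlap between the groups.

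Across the 21 pairs of the 7 members other than Tff2, likeness from library to library was described by Pearson's r of log2 CPM centred within each genotype (6 libraries, which share depth and composition). It was 0.98 for Clca1 with Fcgbp, 0.97 for Zg16 with Tff3 and 0.87 for Muc2 with Spink4. Between the first 2 of these pairs it was lower but above 0, from 0.37 for Clca1 with Tff3 to 0.58 for Fcgbp with Zg16. The pairs described next were picked after the values were seen and carry no test. Clca1 and Fcgbp put the libraries in nearly the same order, with Lingo2-/- replicate 3 highest and wild type replicate 2 lowest for both. The number of Clca1 reads for each Fcgbp read was 0.824, 0.852 and 1.05 in Lingo2-/- replicates 1, 2 and 3 and 0.727, 0.695 and 0.660 in wild type replicates 1, 2 and 3. This ratio varied 1.27-fold among the Lingo2-/- libraries, 1.1004-fold among the wild type libraries and 1.59-fold over all 6, with groups that did not overlap. Clca1 itself varied 1.91-fold among the Lingo2-/- libraries and 1.98-fold among the wild type libraries.

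For the lectin and the trefoil peptide, there were 2.64, 3.02 and 2.74 Zg16 reads for each Tff3 read in Lingo2-/- replicates 1, 2 and 3 and 3.14, 2.72 and 2.97 in wild type replicates 1, 2 and 3, with the groups overlapping. The ratio varied 1.14-fold among the Lingo2-/- libraries, 1.15-fold among the wild type libraries and 1.19-fold over all 6. Zg16 itself varied 1.22-fold among the Lingo2-/- libraries and 2.07-fold among the wild type libraries. The number of Clca1 reads for each Zg16 read was 4.01, 5.77 and 8.78 in Lingo2-/- and 2.39, 2.50 and 1.503 in wild type. It varied 2.19-fold among the Lingo2-/- libraries and 1.66-fold among the wild type libraries, and its 5.84-fold range over all 6 includes the difference between the genotypes, whose values did not overlap.

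The members also split when each was set against the mean of its own genotype on the log2 CPM scale. Leaving out the scarce Tff2, 5 of 7 members were above that mean in Lingo2-/- replicate 3 and 0 of 7 in Lingo2-/- replicate 2. In wild type replicate 1 it was 4 of 7, in wild type replicate 2 it was 2 of 7, Muc2 and Spink4, and Zg16 there stood at −0.64 from the mean. Some markers of the region of the colon differed among the wild type libraries in the same order and some did not. Hoxb13, a homeobox gene of the distal colon, was at 37.3, 29.5 and 45.7 TMM CPM in Lingo2-/- replicates 1, 2 and 3 and at 67.7, 24.5 and 37.1 TMM CPM in wild type replicates 1, 2 and 3. Among the wild type libraries alone, replicate 1 was thus the highest and replicate 2 the lowest, as for Clca1, Fcgbp, Zg16 and Tff3. With the Lingo2-/- libraries included, Lingo2-/- replicate 3 was the highest for Clca1 and Fcgbp. Of the 4 tested distal genes, all were highest in wild type replicate 1 among the wild type libraries, but Hoxb13 and Hoxa13 were lowest in replicate 2 and Hoxd13 and Hoxd11 in replicate 3. Of the 5 proximal genes, Hoxb6, Hoxb8 and Osr2 were lowest in wild type replicate 1 and highest in wild type replicate 2, while Cyp2c55 and Hoxa7 were not.

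The distal colon list, of which 4 genes were tested, had a summed level of 45.0 to 64.6 TMM CPM in Lingo2-/- and 35.0 to 92.7 in wild type, with none of them called. The 5 proximal colon genes summed to 1330.1 to 1833 TMM CPM in Lingo2-/- and 1961 to 2288 in wild type, mostly from Cyp2c55, a cytochrome P450 of the colon (−0.50 ± 0.16, edgeR adjusted p = 0.123), and none was called. The 7 absorptive colonocyte genes all had values below 0 (median −0.30) with none called, and summed to 3291 to 4729 TMM CPM in Lingo2-/- and 4496 to 5285 in wild type. No marker of these 3 lists was at 0 reads in all libraries. The part of region and of colonocytes in the results on the mucus genes was not tested.

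**Figure D4:**
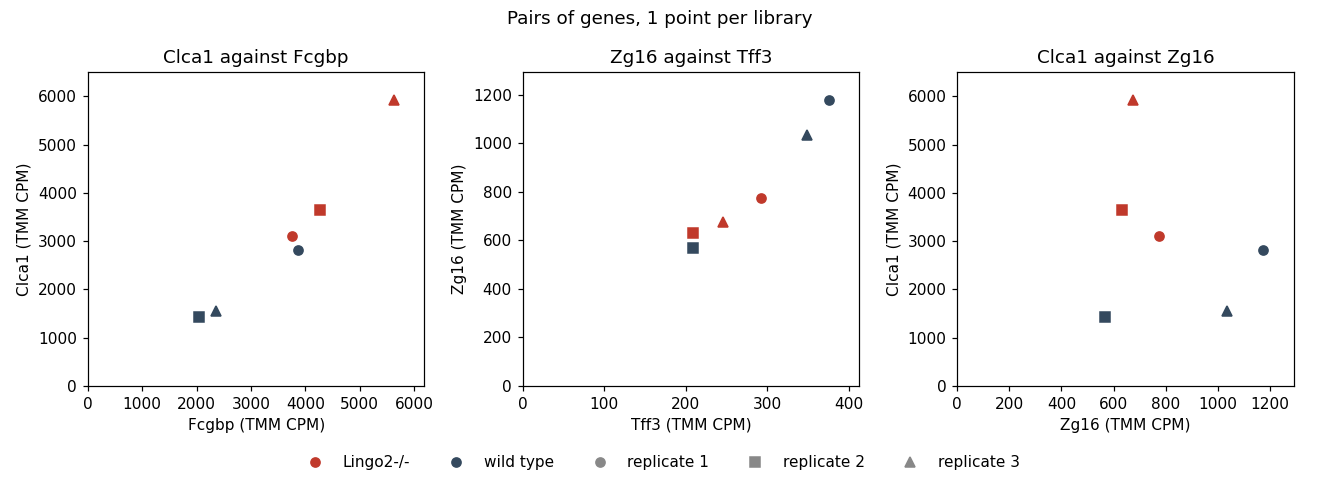
TMM CPM of 3 pairs of genes, 1 point per library (Lingo2-/- red, wild type dark blue, marker shapes for replicates 1 to 3). The ratio of the plotted genes varies 1.59-fold over the 6 libraries for Clca1 with Fcgbp, 1.19-fold for Zg16 with Tff3 and 5.84-fold for Clca1 with Zg16.

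Together the 8 genes took 2.83%, 2.97% and 3.72% of nuclear gene reads in Lingo2-/- replicates 1, 2 and 3, against 2.69%, 2.31% and 2.28% in wild type replicates 1, 2 and 3. All Lingo2-/- libraries lay above all wild type libraries (means 3.17% ± 0.480 and 2.43% ± 0.229, SD, n = 3 each, exact two-sided permutation p = 0.1, the smallest possible). The difference of 0.747 percentage points was 0.473 without Lingo2-/- replicate 3. Muc2, Clca1 and Fcgbp made up 86.4% to 90.3% of these reads in Lingo2-/- and 81.9% to 87.5% in wild type. Muc2 alone made up 38.2% to 43.0% in Lingo2-/- and 43.3% to 60.5% in wild type.

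Other secreted products of goblet and neighbouring epithelial cells lay in both directions. Of 20 listed genes 16 were tested, with 9 values above 0 and 7 below and a median of 0.0046. Of these 16, 2 rose and none fell, against 1.04% of all tested genes called higher and 1.52% lower. The intelectin Itln1, a lectin for microbial sugars, was at 39.8 ± 15.7 TMM CPM in Lingo2-/- and 4.68 ± 0.269 in wild type (3.07 ± 0.34, edgeR adjusted p = 0.0118), and Pla2g2a, a secreted phospholipase, was at 4.42 ± 0.630 and 1.39 ± 0.544 (1.68 ± 0.28, edgeR adjusted p = 0.00883). Itln1 lost its call without wild type replicate 1 (edgeR adjusted p = 0.0720) or wild type replicate 2 (0.0644). Some of the highest fitted values did not pass: Retnlb, a resistin-like protein that acts on bacteria, was at 613 ± 299 TMM CPM in Lingo2-/- and 82.0 ± 47.8 in wild type (2.90 ± 0.65, edgeR adjusted p = 0.113). Retnlb did pass with dispersions that are not robust and with the DESeq2 Wald test. Agr2, a disulfide isomerase needed for Muc2 assembly, was at 982 ± 86.6 TMM CPM in Lingo2-/- and 981 ± 143 in wild type (0.0013 ± 0.14). The other gel-forming mucins were scarce: Muc5b was at 1.19 ± 0.264 and 1.27 ± 0.0969 TMM CPM, Muc6 at 3.85 ± 0.882 and 3.83 ± 0.752, and Muc5ac had 0 reads in every library. Tgm3, a transglutaminase that cross-links the gel, had the lowest value of the list (−0.69 ± 0.45, edgeR adjusted p = 0.483). Retnlb, Agr2, Tgm3 and the mucins were named after their values were seen.

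Goblet cell regulators and granule genes leaned upward, with 17 of 18 values above 0, against 50.1% of all tested genes, and a median of 0.32. Of the 18, 5 rose and none fell, against 1.04% of all tested genes called higher and 1.52% lower. The risen genes include Spdef (121 ± 13.3 TMM CPM in Lingo2-/- and 67.6 ± 3.94 in wild type), a transcription factor of goblet cell maturation, and Atoh1 (50.6 ± 6.77 and 27.0 ± 1.68), which commits cells to the secretory lineage. Capn9, a calpain protease of mucous cells, was at 53.6 ± 3.94 TMM CPM in Lingo2-/- and 28.2 ± 5.67 in wild type (0.93 ± 0.13, edgeR adjusted p = 0.00365). The forkhead factor Foxa3 (0.59 ± 0.12, edgeR adjusted p = 0.0192) and Sytl2, which acts in granule transport (0.42 ± 0.09, edgeR adjusted p = 0.0297), also rose, and Sytl2 was named after its value was seen. Without Lingo2-/- replicate 1, Lingo2-/- replicate 3 or wild type replicate 2 only Spdef, Atoh1 and Capn9 of this list passed, and Sytl2 was also lost without 2 further libraries (edgeR adjusted p = 0.126 without Lingo2-/- replicate 2 and 0.0631 without wild type replicate 3) and with a replicate block (0.0813). Like Spink4, Spdef, Atoh1 and Capn9 passed in every setting tried, as did Pla2g2a among the secreted products. The 6 enteroendocrine markers all had values below 0 (median −0.33), and 1 of them, Gcg, was called lower (−0.71 ± 0.12, edgeR adjusted p = 0.00865).

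**Figure D5:**
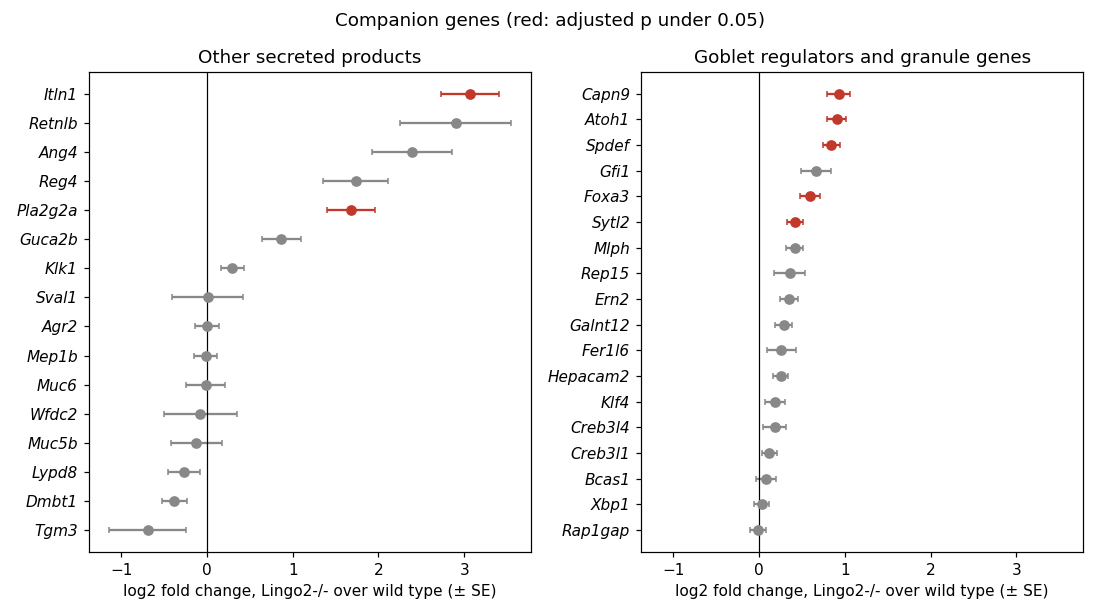
Log2 fold change, Lingo2-/- over wild type (x axis), with standard errors for the 16 tested secreted products (left) and the 18 goblet regulators and granule genes (right). Red points pass the test: Itln1 and Pla2g2a on the left, and Capn9, Atoh1, Spdef, Foxa3 and Sytl2 on the right.

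Sequences upstream of the start are shown for the 3 members with an entry among the RefSeq promoters (GRCm38.p6), to set the flat Muc2 beside Fcgbp and Guca2a. Up to 250 bases before the start are shown, fewer for Guca2a, where an annotated exon begins inside the window. All 3 are on the plus strand: chr7:141690090-141690339 for Muc2, chr7:28070986-28071235 for Fcgbp and chr4:119637482-119637703 for Guca2a. Capitals mark CAGCTG, an E-box of the kind bound by basic helix-loop-helix factors, the family of Atoh1.
Muc2: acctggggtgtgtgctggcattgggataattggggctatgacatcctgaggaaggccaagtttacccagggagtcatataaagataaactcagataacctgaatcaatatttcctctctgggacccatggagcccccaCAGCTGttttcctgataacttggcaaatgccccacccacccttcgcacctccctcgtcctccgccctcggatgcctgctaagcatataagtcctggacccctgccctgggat
Fcgbp: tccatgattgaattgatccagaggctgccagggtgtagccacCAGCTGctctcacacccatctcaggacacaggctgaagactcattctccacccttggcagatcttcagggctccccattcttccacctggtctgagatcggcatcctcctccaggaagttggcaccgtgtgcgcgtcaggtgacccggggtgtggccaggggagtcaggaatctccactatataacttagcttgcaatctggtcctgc
Guca2a: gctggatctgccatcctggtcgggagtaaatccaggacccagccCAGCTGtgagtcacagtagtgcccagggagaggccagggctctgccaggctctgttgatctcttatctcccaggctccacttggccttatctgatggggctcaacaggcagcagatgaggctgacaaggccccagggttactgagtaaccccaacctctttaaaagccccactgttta
Each shown window, of 250 bases for Muc2 and Fcgbp and 222 for Guca2a, holds 1 match to CAGCTG. This motif reads the same on both strands and occurs in 13.0% of all 32851 RefSeq windows of 250 bases before a start. The Ets core GGAT, sought on both strands because Spdef is an Ets factor, has 4 matches in Muc2, 2 in Fcgbp and 3 in Guca2a and occurs in 74.1% of all windows. The caudal-type motif TTTATNG (9.81% of windows) and the forkhead motif TGTTTAC (3.17%), also sought on both strands, have no match in these 3 windows. For Guca2a the bases between the end of its shorter window and the start were not searched for any motif. The 3 genes share the CAGCTG letters, and their fitted changes, none of them called, lie at 0.047 for Muc2, 0.73 for Fcgbp and −0.28 for Guca2a. The part of these motifs in the levels of the genes was not tested. The other 5 genes, Clca1, Zg16, Spink4, Tff2 and Tff3, had no entry in the set of RefSeq promoters used here.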

How the data were processed

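Total RNA of the mouse colon epithelial fraction was sequenced in 3 Lingo2-/- and 3 wild type libraries made with a stranded total RNA kit with ribosomal RNA removal, per the labels' protocols. Per the submitters' processing notes, Trimmomatic 0.39, STAR, HTSeq and DESeq2 were used with build GRCm38. For the counting, neither an annotation release nor how strand was set is given in the sources used here. The deposited count table holds whole-number reads per gene. Its 5 summary lines, which name no gene, held 56.6% to 61.0% of each library's total and were left out, and the line for alignments that are not unique alone held 30.8% to 36.9%. The authors' deposited comparison holds, per the file headers, a normalized signal per library and its mean, a log2 fold change with its standard error, a test score, and raw and adjusted p-values. Dividing that signal by the count returns a single factor in each library for 100% of values (relative tolerance 1e-06), and only its fold changes, adjusted p-values and gene names were used further.

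The test on counts was that of edgeR 4.0.16 under R 4.3.3 (filterByExpr, TMM, robust quasi-likelihood F test on genotype, all 6 libraries, threshold 0.05), and every adjusted p called edgeR adjusted p comes from that test, over 16757 genes unless another filter or a left-out library is named beside it. SE was taken as the log2 fold change over the root of its F value. In simulated counts over 16352 genes for the same comparison, 72% of 100 genes changed 2-fold and 97% of 100 changed 4-fold were recovered, with 18 false calls. Ratios to Muc2 added 0.5 to each count. Libraries of a group differed beyond sampling noise (chi-square 8.40 to 19.4 per degree of freedom). Symbols, coordinates, exon lengths and coding sequences came from GENCODE M21.

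The 8 genes and the gene lists were chosen with earlier results of these data known. All 8 were named, then up to 4 called genes of each companion list by smallest p, and other genes of the lists, Clca and Spink relatives included, were named after their values were seen. Alternatives were other scaling factors (DESeq2, upper quartile), other filters, a replicate block, no mitochondrial genes, dispersions that are not robust, DESeq2 1.42.0, limma 3.58.1 voom with and without sample weights, and leaving out each library.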

Additional observations from a re-analysis of the deposited data

How the results depend on the processing

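Spink4 was the member called in every setting. With no filter on low counts 2 members passed, Spink4 and Fcgbp (0.70). Changed genes over the whole table then numbered 1493 of 28829 tested, against 430 of 16757 with the filter. The DESeq2 Wald test called 657 of 16757 genes and the same 1 member. Leaving out 1 library gave 174 to 674 changed genes, of 16006 to 18018 tested, and 1 to 3 members called. It gave log2 fold changes of 0.80 to 1.501 for Clca1, 0.54 to 1.05 for Fcgbp, −0.68 to −0.21 for Zg16, −0.54 to −0.16 for Tff3, −0.39 to −0.098 for Guca2a and −0.056 to 0.11 for Muc2, whose sign changed without Lingo2-/- replicate 3. The median of the 8 genes was −0.19 to 0.098, and their share of nuclear gene reads differed by 0.473 to 0.920 percentage points. The cause was not tested. The companion lists were recounted under the same settings after the data were seen. Called secreted products numbered 1 to 3 of 16 when 1 library was left out and 4 of 19 with no filter (1 of them lower), against 2 of 16. They numbered 6 of 16 with the DESeq2 Wald test. With dispersions that are not robust they numbered 5 of 16, while 367 of 16757 genes were called over the whole table. Over all tested genes, calls also rose with no filter and with the DESeq2 Wald test. Ang4, Reg4 and Retnlb were gained with dispersions that are not robust and, together with Guca2b, in the DESeq2 Wald test. Guca2b was also gained with no filter and without Lingo2-/- replicate 1. Called goblet regulators numbered 3 to 6 of 18 when 1 library was left out and 8 of 18 with no filter, against 5 of 18. Deviations of same-numbered libraries correlated at −0.13, 0.13 and −0.022 across genes, and those of differently numbered libraries at −0.16 to 0.19. This cannot decide whether the replicate numbers pair the libraries, since deviations from a mean of 3 libraries depend on each other. With the replicate block 360 genes were called, and Spink4 stood at 0.98 (edgeR adjusted p = 0.0174), while among the goblet regulators Sytl2 lost its call (edgeR adjusted p = 0.0813). Tff2 gave no value with the filter at 1 CPM, and none when any 1 wild type library was left out, since it then fell below the filter. The shallow Lingo2-/- libraries limit Tff2, with 2 to 6 reads each.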

Other observations

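The 6 relatives of Clca1 did not pass the test, although 5 of 6 had values above 0. Clca3b was at 156 ± 38.9 TMM CPM in Lingo2-/- and 115 ± 15.8 in wild type (0.44 ± 0.18, edgeR adjusted p = 0.231), and Clca4a lay the other way, at 362 ± 90.8 and 515 ± 83.5 (−0.51 ± 0.19, edgeR adjusted p = 0.185). Clca2 was at 7.10 ± 0.903 and 3.25 ± 1.45 TMM CPM (1.13 ± 0.28, edgeR adjusted p = 0.0585). Spink1, a family relative of Spink4, was at 66.4 ± 8.84 and 90.9 ± 41.7 TMM CPM (−0.45 ± 0.41, edgeR adjusted p = 0.621) and had its lowest value, 45.4, in wild type replicate 2, as Zg16 did.

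A mean profile of the 7 members other than Tff2, centred within each genotype, was compared with single genes. Pearson's r over the 6 libraries with that profile ran from 0.25 for Muc2 to 0.82 for Clca1, each of which contributes to it. Among 8178 other genes with at least 10 CPM on average, those most like it were Pum2 (r = 0.999), Dynll2 (0.995) and Arhgdia (0.994), none of them past the test. The 6 points share each library's depth and composition, and these values are a description. Between members, the lowest value of the same measure was −0.57, for Muc2 with Zg16.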
